A study of Mus musculus with 18 samples.

Results

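Blebbistatin-treated KDEL cells on the stiff substrate were compared with untreated KDEL cells on the same substrate, and the members were the 6 libraries of these groups, of 18 libraries in the series. KDEL cells are NIH 3T3 TetON mouse fibroblasts that carry a doxycycline-inducible SS-GFP-KDEL control construct, delivered by retrovirus and enriched by FACS. All 6 libraries came from cells seeded on fibronectin-coated polyacrylamide gels of 308 kPa and kept in 1 μg/ml doxycycline for 48 hr. The 3 treated cultures (libraries 10, 22 and 34) also received 10 μM blebbistatin for 48 hr, and the 3 untreated libraries were numbers 8, 20 and 32. For library 34 the drug and the construct are assumed, since its labels conflict on both. The methods call the 3 libraries of a condition biological replicates, without saying how the cultures were separated, and p-values measure the spread between these libraries. The sources used here name no vehicle control for the untreated cells.

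The labels of library 34 conflict. Its myosin inhibition label names blebbistatin, whereas its source name gives an empty vector with Y27, and the table column assigned to it carries the same heading. That column is numbered 35, a number that no library has, and was assigned by its heading. The differences from untreated cells, their p-values and the list medians were therefore also computed without library 34. Results that use the runs of library numbers described below, as a block or over every run, were computed only with library 34.

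Blebbistatin holds the myosin II motor in a state that binds actin weakly, so that cells build little contractile tension. Non-muscle myosin II filaments pull on actin bundles that end in focal adhesions, and the ROCK kinases turn the motor on through its light chains. Actin tension and actin assembly are known to feed into transcription through SRF with its MRTF cofactors and through YAP and TAZ. SRF with its other cofactors, and CREB, also switch on immediate early genes, which respond to stimuli without new protein synthesis.

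Library 8 stood apart over the genes tested, and library 34 for some genes that mark the cell line. Over the genes tested, Spearman correlations of library 8 with the other 8 libraries of KDEL cells on 308 kPa (3 of them treated with Y27) were 0.962 to 0.975, and those of the other pairs were 0.983 to 0.993. Library 8 had a signal of 1320 for Mki67, a marker of dividing cells, against 11278 to 15960 in the other 5. Of 8 genes chosen in earlier work on these data because they marked the cell line, library 34 fell outside the other 5 libraries for Serpina1a (63.1, against 386 to 826), Pof1b (4.50, against 19.6 to 29.6), Cox7b2 (21.6, against 64.0 to 107) and Sun1 (3656, against 3035 to 3443). The SUN1L libraries, in which the LINC complex that ties the nucleus to the cytoskeleton was disrupted, had 65.3 to 121 for Serpina1a and 1 to 3.16 for Pof1b, but 325 to 474 for Cox7b2 and 38452 to 82617 for Sun1. For Rad1 (581), Ttyh3 (1484), Cd97 (167) and Akr1c13 (92.9) library 34 lay outside the SUN1L range, on the side of the other KDEL libraries. If the commonest lowest value stands for 1 read pair, the 6 libraries held about 14260000 to 17580000 read pairs. Of 13 fibroblast markers, 12 were above 10 in each of the 6 libraries, Lum being the exception, and the summed signal of the list was 584421 to 745008 in untreated and 595516 to 829457 in treated cells. Other cell types' lists had summed signals of 247 to 772 (epithelial), 342 to 1540 (endothelial), 192 to 342 (macrophage) and 222 to 401 (muscle) in the 6 libraries. Cdh1, Krt14, Tek, Cdh5, Cd68, Csf1r, Lyz2 and Des held most of these sums, whereas Epcam, Emr1 and Myod1 were at the lowest value of 1 in all 6. Their part in the results was not tested.

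Of 16021 genes tested, 0 differed between treated and untreated cells at an adjusted p under 0.05 and 2-fold, which is 0% of the genes tested (limma with Benjamini-Hochberg adjustment, smallest adjusted p = 0.363). At an unadjusted p under 0.05 there were 674 genes, or 4.21% of those tested, of which 328 were higher (2.05%) and 346 lower (2.16%) with blebbistatin. A share of about 0.05 passes this threshold when nothing differs. The 3 treated libraries lay wholly above or wholly below the 3 untreated ones for 1156 genes (7.22%), higher for 587 (3.66%) and lower for 569 (3.55%). When nothing differs, 3 against 3 libraries lie wholly apart with a probability of 0.1, and 2 against 3 with one of 0.2. Leaving out libraries therefore raises such shares by itself. At least 2-fold differences in either direction were seen for 523 genes, 187 higher and 336 lower, and the libraries of 196 of these did not overlap. The counts were 2 called genes (0.0125%) and 685 at an unadjusted p under 0.05 (4.28%) without library 8, 0 and 487 (3.04%) without library 34, and 0 and 688 (4.29%) without both. Tmem59l and Gm826, the 2 genes called without library 8, had a signal of 3.93 and 3.92 in untreated libraries 20 and 32 and of 1 in all treated libraries, where about 2 signal units stand for a read pair. Low signals were common at the top of the ranking, and 25 of the 50 genes with the smallest p had a mean of at most 5 read pairs in both groups. Every gene named in the paragraphs that follow had an adjusted p of 0.89 or more in the comparison with untreated cells, so the values are given as measured differences and not as calls.

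Immediate early genes had more members without overlap between the groups than any other list with all libraries, and 4 promoters are shown here so that the genes described next can be seen with their regulatory sequence. They are the 250 bases before the start of Dusp1 (chr17:26508473-26508722, minus strand), Nr4a1 (chr15:101266596-101266845, plus strand), Zfp36 (chr7:28379229-28379478, minus strand) and Srf (chr17:46556163-46556412, minus strand), from RefSeq on GRCm38.p6 and written 5′ to 3′ on the strand of the gene. The RefSeq starts of Dusp1 and Zfp36 lie inside the genes as the deposited table places them, so parts of these windows are within the gene there. Capitals mark TGACG or its complement CGTCA, the core of the CREB site, the full site TGACGTCA, which holds both, and the CArG box bound by SRF.
Dusp1: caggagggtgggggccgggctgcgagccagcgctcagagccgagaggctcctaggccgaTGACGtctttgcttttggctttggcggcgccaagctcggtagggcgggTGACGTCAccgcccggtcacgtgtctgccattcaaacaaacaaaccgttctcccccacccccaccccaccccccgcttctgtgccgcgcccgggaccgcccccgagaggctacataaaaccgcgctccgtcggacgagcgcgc
Nr4a1: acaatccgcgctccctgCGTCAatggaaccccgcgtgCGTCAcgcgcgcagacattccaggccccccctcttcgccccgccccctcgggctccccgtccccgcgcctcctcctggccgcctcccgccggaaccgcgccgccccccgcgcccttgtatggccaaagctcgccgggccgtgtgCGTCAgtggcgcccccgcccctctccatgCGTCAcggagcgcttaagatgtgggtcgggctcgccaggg
Zfp36: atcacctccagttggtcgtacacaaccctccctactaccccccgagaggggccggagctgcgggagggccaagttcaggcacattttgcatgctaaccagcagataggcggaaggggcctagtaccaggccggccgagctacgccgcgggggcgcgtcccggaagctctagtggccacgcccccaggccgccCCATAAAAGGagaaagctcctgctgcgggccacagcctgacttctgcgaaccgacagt
Srf: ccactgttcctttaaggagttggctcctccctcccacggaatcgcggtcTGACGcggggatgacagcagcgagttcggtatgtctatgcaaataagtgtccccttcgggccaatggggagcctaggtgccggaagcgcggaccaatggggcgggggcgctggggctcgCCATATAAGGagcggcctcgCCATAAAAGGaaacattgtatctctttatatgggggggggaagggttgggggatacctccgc

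Among 32851 windows of this length before annotated mouse gene starts, 17.8% held TGACG on either strand, 1.55% held TGACGTCA and 1.47% held a CArG box. Windows were listed for 19 of the 25 immediate early genes, 25 windows in all, with 5 starts for Egr2, some of them overlapping, and 3 for Maff. Of these windows, 14 held TGACG, 3 held TGACGTCA and 5 held a CArG box, 4 of the last being starts of Egr2. A match in a window is a description of its letters and not of a bound factor.

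Among the immediate early genes, 24 of 25 had a higher mean log2 signal with blebbistatin, against 51.1% of all genes tested higher and 48.9% lower. The libraries of 12 of the 25 did not overlap, all with the treated ones higher, against 3.66% of all genes in that direction, and 6 were higher at an unadjusted p under 0.05 (2.05% of all genes). At an unadjusted p under 0.05 there were 6 members without library 8, 3 without library 34 and 2 without both (4.28%, 3.04% and 4.29% of all genes). The list's median log2 difference was 0.80, against 0 over all genes tested. It was 0.64 without library 8, 0.78 without library 34 and 0.63 without both, with 24, 23 and 23 members higher. Non-overlapping members, all higher, numbered 13, 13 and 14 in the same sets (6.64%, 7.2% and 13.2% of all genes). The libraries are numbered in 3 runs (3 to 12, 15 to 24 and 27 to 36), each with 1 untreated and 1 treated library, and within them the list's median difference was 1.45, 0.35 and 0.42. In 18 of the 25 genes the treated library was the higher one in each of the 3 runs, against 14.5% of all genes.

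Dusp1, the phosphatase that switches off p38 and JNK kinases (chromosome 17 from 26505590 to 26508519), had a signal of 4995, 5946 and 8033 in untreated and of 13619, 10720 and 11516 in treated libraries. The groups did not overlap, with means of 6325 ± 1554 and 11952 ± 1498 (SD, n = 3 each) and a log2 difference of 0.94 ± 0.23 (SE). Its unadjusted limma p was 0.0038, and the difference was 0.78 without library 8 and 0.96 without library 34. Zfp36, an RNA-binding protein that destabilizes cytokine transcripts, was at 792, 830 and 1152 against 3879, 1691 and 2390. Its log2 difference of 1.46 ± 0.50 (SE) was 1.35 without library 8 and 1.49 without library 34, and library 10 was the highest. Sik1, a cAMP-inducible kinase outside the list (chromosome 17 from 31844248 to 31855792), had signals of 757, 883 and 655 against 1460, 1178 and 1191. All treated libraries lay above all untreated ones for Sik1, by 0.74 ± 0.15 (SE) on the log2 scale with all libraries and without library 8, and by 0.79 without library 34.

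Nr4a1, an orphan nuclear receptor, was at 455, 1616 and 1570 in untreated and at 3771, 1932 and 2956 in treated cells, a log2 difference of 1.41 ± 0.50 (SE) that was 0.80 without library 8. Klf10, a Krüppel-like factor induced by TGF-beta, was at 1423, 2064 and 1831 against 2690, 3144 and 5361, and library 34 was the highest, so that its log2 difference of 1.02 ± 0.30 (SE) was 0.73 without that library. Neither gene overlapped between the groups.

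Further members, chosen with their values in view, are given here, and some members whose groups overlapped are not named. Egr1, a zinc finger factor, was at 5737, 7517 and 5063 in untreated and at 18800, 10909 and 10554 in treated cells, with no overlap and a log2 difference of 1.10 ± 0.46 (SE). Maff, Klf6, Ier2, Junb, Klf4, Fosl2 and Ier5 also did not overlap, with log2 differences from 0.08 for Ier5 to 1.05 for Ier2. The AP-1 subunits Fos and Fosb had the largest log2 differences of the list, 1.75 ± 0.95 and 1.58 ± 0.96 (SE), but untreated library 32 reached 1586 for Fos, within the treated range of 1214 to 5679. Library 10 was the highest of the 6 libraries for Fos, Fosb, Egr1, Egr2, Egr3, Ier2, Junb and Btg2. Atf3, a stress-induced factor, was the 1 member with a lower mean log2 signal, at 75.2 to 173 in untreated and at 66.5 to 182 in treated cells.

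Genes outside the list, named by the smallest p among well-measured genes without overlap, differed by less than 2-fold. Id1, an inhibitor of basic helix-loop-helix factors and a classical BMP target (chromosome 2 from 152736251 to 152737410), was at 3359, 3497 and 3948 in untreated and at 5919, 4658 and 5650 in treated cells. Its log2 difference of 0.58 ± 0.12 (SE) had the smallest p of these genes, 0.0010, and was 0.53 without library 8 and 0.55 without library 34. Trak2, an adaptor that links mitochondria to kinesin, was at 2118, 2671 and 2742 against 3614, 3499 and 3644, a log2 difference of 0.52 ± 0.11 (SE). Epb4.1l2, a protein 4.1 that anchors the spectrin and actin skeleton to the membrane, was at 7498, 9254 and 9589 against 11609, 11705 and 13887. The other higher genes of this rule were Focad, Usp46, Cacna1a, Bach2, Pdgfrl, Lgalsl and Csgalnact2, with log2 differences from 0.33 for Csgalnact2 to 0.79 for Pdgfrl. Hes1, a transcriptional repressor and Notch target chosen after its values were seen, was at 735, 905 and 524 against 2218, 1583 and 1317, a log2 difference of 1.24 ± 0.36 (SE) that was 1.27 without library 8 and 1.41 without library 34.

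The 12 lower genes of the same rule had smaller differences, from −0.28 for Gabarapl2 to −0.60 for Marcksl1 on the log2 scale. Gabarapl2, an ATG8-family protein of autophagosomes, was at 1997, 1954 and 2044 in untreated and at 1624, 1646 and 1680 in treated cells, and its spread within each group was small. Plin2, the coat protein of lipid droplets, was at 9251, 12090 and 12265 against 6956, 8268 and 8238, with within-run log2 differences of −0.41, −0.55 and −0.57. Its unadjusted p was 0.011, and 0.00039 with the runs as a block. Marcksl1, a membrane protein that binds actin, was at 7687, 5931 and 5290 against 4305, 4465 and 3589. Tnfrsf22, a decoy receptor for TRAIL, had a log2 difference of −0.48, and Rcan1, an inhibitor of calcineurin, one of −0.34. Rit1, Rundc1, Cnppd1, Rfxank, Wdr92, Sdf2 and Btbd19 completed the group, and none of the 12 overlapped between the groups.

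**Figure D1:**
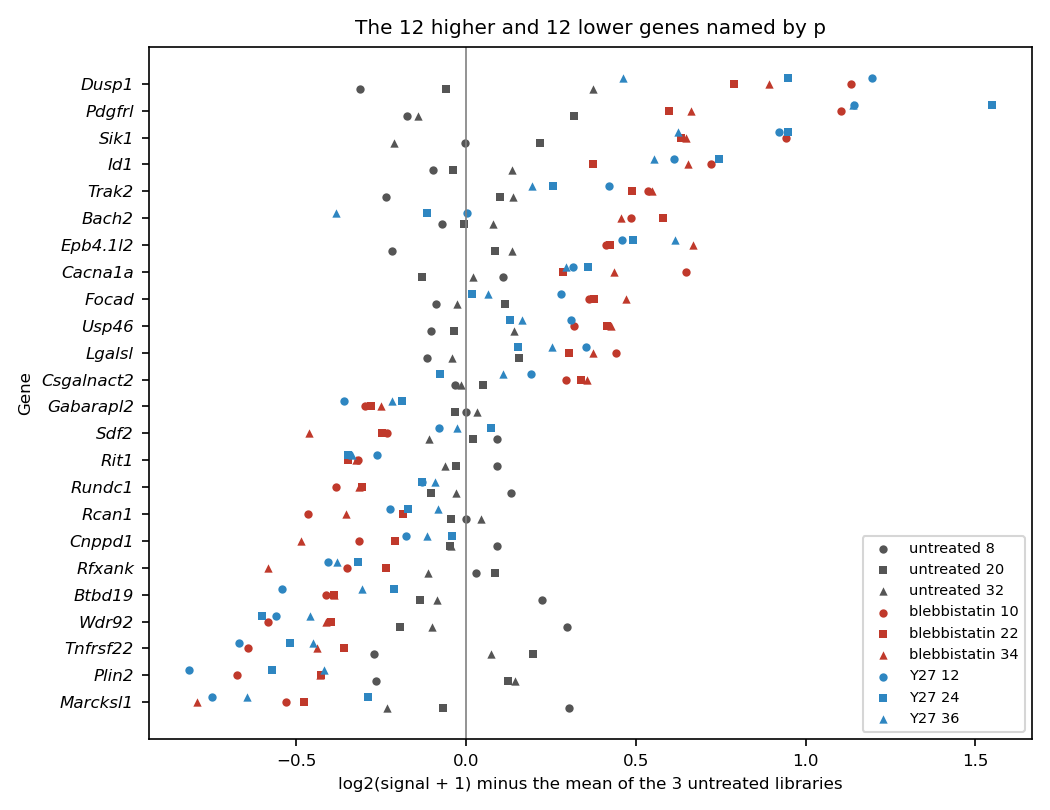
log2(signal + 1) of each library minus the mean of the 3 untreated libraries for the 12 higher and 12 lower genes with the smallest p among well-measured genes without overlap, with colours for the groups and marker shapes for the runs. All blebbistatin points lie on one side of the untreated points because the genes were chosen for that. Y27 points of Bach2, Focad, Usp46, Lgalsl, Sdf2, Rundc1 and Cnppd1 fall partly or wholly among the untreated ones.

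Of 26 genes of myosin II, the target of the drug, and of its regulators, 20 were higher, against 51.1% of all genes. Higher members numbered 16 without library 8, 17 without library 34 and 13 without both. Of the 16021 genes tested, 8236, 7947 and 8212 were higher in these sets. The treated libraries lay wholly above the untreated ones for 4 of the 26 (3.66% of all genes). Such members numbered 4 without library 8, 4 without library 34 and 5 without both (6.64%, 7.2% and 13.2% of all genes). With the runs as a block 3 members had an unadjusted p under 0.05, against 7.57% of all genes. Without the block 1 had an unadjusted p under 0.05, against 4.21% of all genes. That gene was Rock2, the kinase that phosphorylates myosin phosphatase, at 11786, 11616 and 11389 in untreated and at 13122, 13944 and 13839 in treated cells. Its log2 difference was small, 0.23 ± 0.09 (SE), with no overlap, and was 0.24 without library 8 and 0.22 without library 34, but 0.10 after quantile normalization. Myh9, the main non-muscle myosin II heavy chain, was at 37525, 64871 and 60076 against 72842, 73364 and 69563. Library 8 was the low value for Myh9, and the log2 difference of 0.45 ± 0.22 (SE) was 0.20 without it. Myh10 and Rock1 overlapped between the groups, with log2 differences of 0.37 and 0.12 that were −0.01 and 0.00 without library 8. Mylk, a kinase of the myosin light chain, was at 129, 154 and 111 against 137, 136 and 139. Myl9 was at the lowest value of 1 in all treated libraries and at 1, 1.97 and 5.88 in untreated ones, too few reads to compare. The median of the list was 0.12 with all libraries, 0.03 without library 8, 0.11 without library 34 and 0.01 without both.

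SRF and MRTF targets, most of them genes of the actin cytoskeleton, had 21 of 29 members higher and a median log2 difference of 0.27, which was −0.01 without library 8 and 0.27 without library 34. Srf itself, whose promoter with a pair of CArG boxes is shown above, was at 1436, 2016 and 2123 in untreated and at 2589, 2697 and 2405 in treated cells. The groups did not overlap for Srf, and the log2 difference was 0.48 ± 0.18 (SE), 0.31 without library 8 and 0.53 without library 34. Cnn2, a calponin of actin bundles, differed by 0.56 ± 0.19 (SE), with 13689 in untreated library 32 against 13688 in treated library 34. Actb was at 73638, 139658 and 229348 against 171318, 194452 and 207511, and Acta2 at 8635, 20876 and 23176 against 23873, 24270 and 13393. Library 8 had the lowest signal of the 6 for both actins and for Tagln, which was at 3698 there and at 5429 to 12548 in the others. The list had 3 members at an unadjusted p under 0.05 (4.21% of all genes), Cnn2 and Srf higher and the low-level Lmod1 lower. Such members numbered 1 without library 8, 4 without library 34 and 2 without both (4.28%, 3.04% and 4.29% of all genes). The treated libraries lay wholly above the untreated ones for 2 of the 29 (3.66% of all genes). Without library 8, without library 34 and without both this held for 2, 8 and 9 (6.64%, 7.2% and 13.2% of all genes).

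YAP and TAZ targets had 19 of 23 members higher. The treated libraries lay wholly above the untreated ones for 3 of the 23 (3.66% of all genes). Such members numbered 5 without library 8, 9 without library 34 and 13 without both (6.64%, 7.2% and 13.2% of all genes). The list's median was 0.29 with all libraries, 0.25 without library 8, 0.24 without library 34, 0.38 without both and 0.18 without blebbistatin library 10. Crim1, a transmembrane protein that binds BMPs, was at 7224, 7431 and 7164 in untreated and at 12495, 12715 and 8341 in treated cells, with no overlap and the value of library 34 closest to the untreated ones. Its log2 difference was 0.59 ± 0.21 (SE), and 0.79 without library 34. Ctgf, a matricellular protein and classical YAP target, was at 4850, 14515 and 14494 against 17235, 17423 and 17559, a log2 difference of 0.79 that was 0.26 without library 8. Cyr61 was at 8206, 8672 and 13594 against 26997, 17836 and 9332, and Ankrd1 at 4479, 4385 and 6075 against 8037, 7303 and 3973. Library 34 lay below untreated library 32 for Cyr61 and below all untreated libraries for Ankrd1, and without it the log2 differences were 1.15 and 0.64, with unadjusted p of 0.018 and 0.032. Nt5e had an unadjusted p of 0.0025, but its signals were 4.68, 6.68 and 6.18 in untreated and 1.15 to 2.02 in treated cells, which is a few reads.

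**Figure D2:**
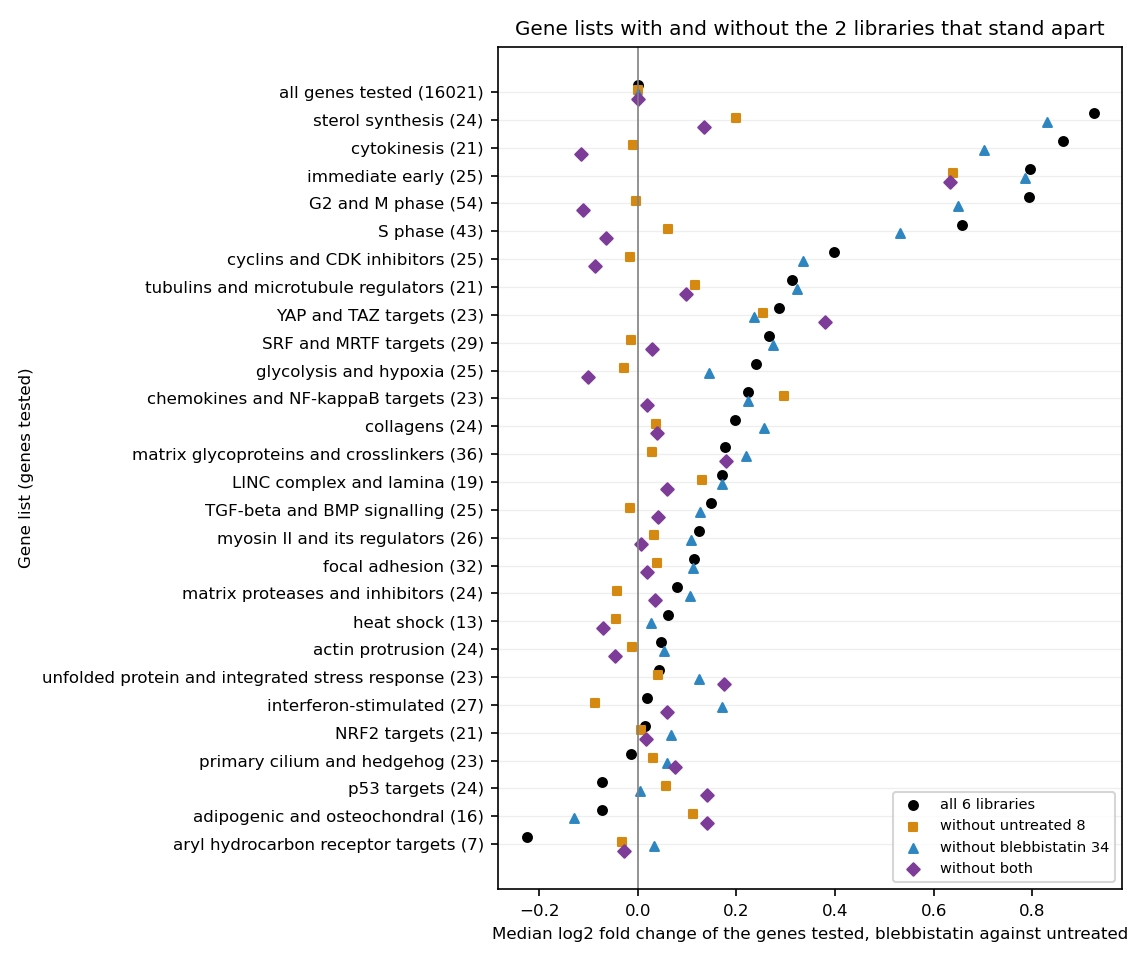
Median log2 fold change of each gene list, blebbistatin against untreated, with all 6 libraries, without untreated library 8, without blebbistatin library 34 and without both, and the number of genes tested in brackets. The immediate early median stays between 0.63 and 0.80 in the 4 sets, whereas those of sterol synthesis, cytokinesis, G2 and M phase and S phase fall from 0.66 or more to 0.20 or less without library 8.

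In the focal adhesion list 1 of 32 genes had an unadjusted p under 0.05, no more than the 4.21% of all genes, and it was Tln1, the talin that joins integrins to actin. Tln1 was at 7782, 10289 and 10009 in untreated and at 13143, 13023 and 11650 in treated cells, with no overlap and a log2 difference of 0.44 ± 0.14 (SE), 0.31 without library 8. Vcl, its partner vinculin, overlapped between the groups, with a log2 difference of 0.36 that was 0.07 without library 8. The tubulin and microtubule list had 19 of 21 members higher and 3 at an unadjusted p under 0.05 (4.21% of all genes), all higher, with 1 such member without library 8. Tuba1a, an alpha tubulin, was at 6319, 9487 and 11748 against 15473, 12442 and 15676, without overlap, and differed by 0.70 ± 0.22 (SE). That difference was 0.45 without library 8 and 0.64 without library 34. Tubb2a and Tubb2b had log2 differences of 0.67 and 1.14, which were 0.37 and 0.63 without library 8, and tubulin genes share sequence, so reads may be split among them. Sptan1, Add3, Myo18a and Spire1, which encode a spectrin, an adducin, an unconventional myosin and an actin nucleator, were chosen after their values were seen and had log2 differences of 0.42, 0.35, 0.48 and 0.43 without overlap.

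Of 24 matrix proteases and their inhibitors, 4 were higher and 2 lower without overlap, against 3.66% and 3.55% of all genes. Matrix glycoproteins and crosslinkers had 1 of 36 members higher without overlap with all libraries, and 9 without library 34 (7.2% of all genes), when the proteases had 5. The genes of the ADAMTS metalloproteinases Adamts1, Adamts2 and Adamts12 lay above the untreated range in all treated libraries. Adamts2, which removes the N-propeptide of procollagen, was at 3181, 3285 and 3404 in untreated and at 6240, 4675 and 4125 in treated cells, a log2 difference of 0.59 ± 0.17 (SE). Adamts12 was at 922, 1210 and 905 against 1962, 1373 and 1465, and Adamts1 at 1626, 1956 and 2246 against 8313, 2992 and 3062, with library 10 highest in both. Timp1, an inhibitor of metalloproteinases, was lower without overlap, at 4020, 4328 and 5387 against 3029, 3784 and 3521, and its log2 difference of −0.41 ± 0.16 (SE) was −0.49 without library 8. With the runs as a block, 8 of the 24 genes had an unadjusted p under 0.05, against 7.57% of all genes in that fit (3.68% higher).

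Collagens had 17 of 24 members higher and a median of 0.20, which was 0.04 without library 8. Col1a1, an alpha chain of type I collagen, was at 49147, 44812 and 83218 against 100472, 76431 and 105062. Its groups overlapped because untreated library 32 exceeded treated library 22, and its log2 difference was 0.71 ± 0.28 (SE), 0.61 without library 8 and 0.63 without library 34. Col1a2, the other chain of type I collagen, did not overlap, at 126782, 109725 and 130481 against 203977, 142878 and 171302. Lamc1, the laminin gamma 1 chain, differed by 0.42 ± 0.12 (SE) without overlap. Lox, the enzyme that crosslinks collagen, was at 52393, 37730 and 32287 in untreated and at 90990, 60875 and 46464 in treated cells. The groups overlapped for Lox, but the treated library was higher in each run, by 0.80, 0.69 and 0.53 on the log2 scale, and its unadjusted p was 0.063 without and 0.0018 with the runs as a block (adjusted p = 0.612 or more for all genes in that fit). Fn1, fibronectin, was lowest in the run of libraries 32 and 34 in both groups, at 321195, 423086 and 165758 against 340088, 307582 and 135350.

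The list of chemokines and NF-kappaB targets held 1 gene of 23 with an unadjusted p under 0.05, a share near the 4.21% of all genes, and none without library 34. This was Cxcl1, a neutrophil chemokine, at 87.2, 397 and 488 in untreated and at 795, 914 and 2034 in treated cells, a log2 difference of 2.14 ± 0.78 (SE) without overlap. It was 1.37 without library 8 and 1.73 without library 34. Ptgs2, the inducible cyclooxygenase and another early response gene, also did not overlap, with 6244 to 16028 against 19077 to 23856. Adm, which encodes adrenomedullin and was in the glycolysis and hypoxia list, was at 130, 217 and 478 against 1122, 574 and 588, and was the only member of that list with an unadjusted p under 0.05. Usp18, an interferon-induced protease at a low level of at most 20.9 in any of the 6 libraries, was lower without overlap, with a log2 difference of −1.45 ± 0.40 (SE).

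The medians of cell division and sterol synthesis genes moved with library 8. Of 54 G2 and M phase genes, 53 were higher with blebbistatin, with a median log2 difference of 0.79, and 0 had an unadjusted p under 0.05. Without library 8 the median was 0.00 with 26 of 54 higher, and without library 34 it was 0.65. The within-run medians were 2.18, 0.33 and −0.07. S phase genes had 43 of 43 members higher and a median of 0.66 with all libraries, and 0.06 without library 8. Cytokinesis genes, for which myosin II drives the ingression of the furrow, had a median of 0.86 with all libraries and −0.01 without library 8. Anln, an anillin of the contractile ring, was at 1827, 8509 and 10144 in untreated and at 8365, 11697 and 13302 in treated cells. Chmp4b, an ESCRT-III protein of abscission, was the 1 cytokinesis gene with an unadjusted p under 0.05 and was lower, with a log2 difference of −0.26 ± 0.10 (SE). Among cyclins and CDK inhibitors, Cdk6 was higher without overlap, at 3497, 4149 and 4948 against 5404, 5164 and 6340, a log2 difference of 0.43 ± 0.14 (SE) that was 0.31 without library 8. The arrest gene Cdkn1a was at 18510 in library 8, at 10388 and 11091 in the other untreated libraries and at 7663 to 10945 in the treated ones.

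Sterol synthesis genes were higher for 24 of 24 members, with a median log2 difference of 0.92 that was 0.20 without library 8, when 21 of 24 were higher, and 0.83 without library 34. The treated libraries lay wholly above the untreated ones for 6 of the 24 with all libraries, without library 8, without library 34 and without both. The shares of all genes in these sets were 3.66%, 6.64%, 7.2% and 13.2%. For G2 and M phase genes the number was 0 in each set. Mvk, mevalonate kinase, was at 807, 1826 and 2713 in untreated and at 3026, 2710 and 3661 in treated cells. Library 8 was the lowest of the 6 libraries for Mvk, and its mean log2 signal over the sterol list was 10.12, against 12.22 to 12.59 in the other 5.

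**Figure D3:**
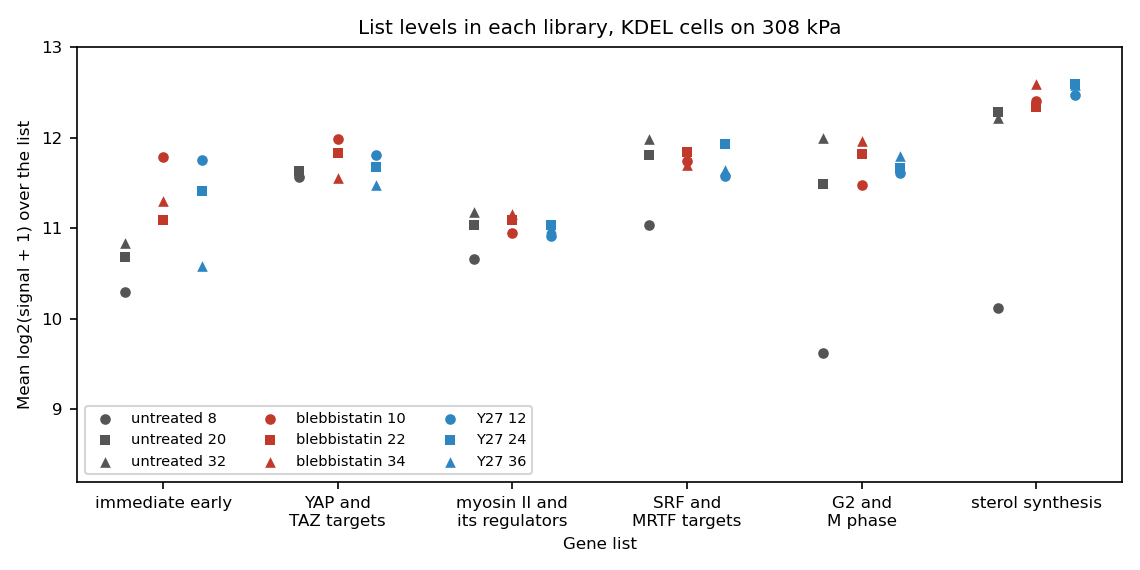
Mean log2(signal + 1) over 6 gene lists in each library of KDEL cells on 308 kPa, with colours for untreated, blebbistatin and Y27 cells and marker shapes for the runs of library numbers. Untreated library 8 lies at 9.62 for G2 and M phase and 10.12 for sterol synthesis, far below the others, whereas all 3 blebbistatin libraries, at 11.09 to 11.79, lie above all 3 untreated ones, at 10.29 to 10.84, for the immediate early genes.

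The remaining lists had medians between −0.22 (aryl hydrocarbon receptor targets) and 0.24 (glycolysis and hypoxia) with all libraries. In the glycolysis and hypoxia list 22 of 25 members were higher, against 51.1% of all genes. Higher members of that list numbered 9 without library 8, 20 without library 34 and 8 without both. The medians without library 8 lay between −0.09 and 0.13 for actin protrusion, p53 targets, matrix glycoproteins, TGF-beta and BMP signalling, interferon-stimulated genes, NRF2 targets, aryl hydrocarbon receptor targets, the unfolded protein response, heat shock, glycolysis and hypoxia, the LINC complex and lamina, adipogenic and osteochondral genes, and cilium and hedgehog genes. Lmnb1, the gene of lamin B1, was at 576, 2013 and 4249 in untreated and at 2942, 3159 and 4447 in treated cells, a log2 difference of 1.02 that was 0.24 without library 8. Tek, the angiopoietin receptor used here as an endothelial marker, was at 682, 244 and 125 against 1489, 551 and 157, and the treated library was the higher one in each run. It was the 1 of 5 endothelial markers with a higher mean, and the list's median was −0.40, or −0.79 without library 8. Gapdh had a log2 difference of 0.23 ± 0.27 (SE), and −0.03 without library 8.

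Y27, a ROCK inhibitor, acts upstream of the motor that blebbistatin blocks, and KDEL cells on 308 kPa that received 25 μM Y27 for 48 hr (libraries 12, 24 and 36) share the untreated libraries of the comparison. Tested directly against each other, treated cells of the 2 drugs differed at 0 of 16021 genes by adjusted p and 2-fold (limma with Benjamini-Hochberg adjustment), and 453 genes (2.83%) had an unadjusted p under 0.05. Without library 34 these counts were 0 and 371. Dusp1 was at 14218, 11968 and 8550 with Y27, and the mean log2 signal of the immediate early list was 11.75, 11.41 and 10.59 with Y27 against 11.79, 11.09 and 11.30 with blebbistatin. Library 36 lay below every blebbistatin library for that list. It also lay below untreated libraries 20 and 32, at 10.68 and 10.84, and above untreated library 8, at 10.29. Of the 25 genes of the list, 0 had an unadjusted p under 0.05 between the drugs. Bach2, a transcriptional repressor, was at 692, 738 and 677 with blebbistatin, at 494, 456 and 378 with Y27 and at 469.5, 492 and 521 untreated. It had the lowest p between the drugs of the 24 genes named by p, 0.00069, with an adjusted p of 1 (limma) and a log2 difference of 0.67. Those 24 genes were chosen by their blebbistatin values, which the comparison with Y27 uses again, so this p is not an independent test. Mylk differed by 0.64 on the log2 scale, with 84.1, 86.2 and 93.1 in Y27 cells, all below the 136 to 139 of blebbistatin cells. Pdgfrl, a PDGF receptor-like protein, was at 1882, 1325 and 1386 with blebbistatin and at 1934, 2563 and 1931 with Y27. A p that missed the threshold does not show that the drugs act alike.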

How the data were processed

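The 18 mRNA libraries were sequenced as paired ends, and per the labels and methods the reads were aligned with TopHat2 2.0 and quantified in AvadisNGS. The authors deposited 1 table of normalized signal per gene, scaled by TMM with a lowest value of 1, which holds no counts. From these values log2(value + 1) was computed here for the 16021 of 22019 genes above 1 in at least 3 libraries. Differences are on that scale and understate those of low genes. limma 3.58.1 in R 4.3.3, with a trend, was fitted to 9 libraries (untreated, blebbistatin and Y27, 6 residual degrees of freedom), two-sided. Calls needed a Benjamini-Hochberg adjusted p under 0.05 and 2-fold. An exact test of 3 against 3 libraries cannot give a p under 0.1. Of values below 10 steps of the commonest low value, 47.5% to 49.5% were whole multiples of it (tolerance 0.02 steps), so reads were not recovered and depth is approximate. In simulated data for this comparison on 16021 genes, values were drawn independently with a normal spread per gene, and 200 genes above the median level were changed. Of these, 91% were called when changed 4-fold and 97% when changed 8-fold, with 8 and 5 false calls. The simulated data had no outlying library and no correlation within runs, and 2-fold changes were not simulated. These shares therefore do not give the power for the real libraries or for low genes.

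The gene names pair with positions that start within 1000 bases of GRCm38.p6 genes for 86.8% of 14864 matched symbols and of NCBIM37 genes for 5.2%, so positions are given as GRCm38 although the methods name mm9. The genes named were those with the smallest p among genes above the median level without overlap (12 in each direction), up to 4 members of each list by p, and a fixed set that includes Myh9, Rock2, Srf and Gapdh. Other genes, among them Fos, Fosb, Fosl2, Ier2, Junb, Klf4, Klf6, Egr1, Egr2, Egr3, Btg2, Atf3, Ier5 and Maff, were chosen after their values were seen. The members and lists were chosen with earlier results of these data known. Library 34 was taken from the column numbered 35, whose heading matches its source name and no other library's. Deviations from the group means of same-run untreated and treated libraries correlated at 0.30, 0.16 and 0.35, and the runs come from the serial numbers in the titles, since no shared day is stated. The alternatives tried were other filters, pseudocounts, normalization, library sets, a run block, array weights, leaving out libraries and a z-test of proportions.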

Additional observations from a re-analysis of the deposited data

How the results depend on the processing

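No adjusted call was made by limma with all libraries, with the higher filter, another pseudocount, quantile normalization, other library sets, no trend, array weights, adjusted p alone or the run block (paired analysis). The exceptions were 1 call without a filter (Rph3a), 0 to 2 when leaving out 1 library, and 531 (119 higher, 412 lower) by a z-test of proportions on summed signal, which uses no spread between libraries. The calls made by leaving out a library were Tmem59l and Gm826 without untreated library 8, Gm28051 without untreated library 20 and C030037F17Rik without blebbistatin library 22. The 674 genes at an unadjusted p under 0.05 became 1213 with the run block and 487 to 1883 when leaving out 1 library (1222 without library 20 and 1883 without library 32). The 523 genes at least 2-fold different became 274 with the higher filter, 142 and 794 with pseudocounts of 8 and 0.1, and 495 to 1105 when leaving out 1 library (906 without library 20, 826 without library 10). The cause was not tested. Over these alternatives the immediate early median ranged from 0.55 to 0.95 and that of G2 and M phase from −0.11 to 1.36. Low genes are limited by depth, at about 2 signal units per read pair.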
